A study of Mus musculus with 6 samples.

Results

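The Krüppel-like factors (KLFs) studied here are 10 members of a family of zinc-finger transcription factors: Klf2, Klf3, Klf4, Klf5, Klf6, Klf7, Klf9, Klf10, Klf11 and Klf13. They were chosen by gene symbol among the 54418 Ensembl identifiers of the deposited count table, and all 10 were found and were expressed enough to be tested. RNA came from organoids, epithelial cultures grown as small hollow bodies, of a mouse line labelled AKP, a label that the sources used here do not spell out. The tested organoids carry the genotype label GATA6KO (3 libraries) and are compared with organoids labelled Control (3 libraries), and both are on the AKP background. The series title places the knockout of Gata6, a zinc-finger factor of endodermal tissues, in colorectal cancer metastasis. No label says how the knockout was made, whether a library is a clone, or whether replicates are separate cultures, so p-values speak only of how far these libraries differ among themselves, and that can be technical.

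KLF proteins bind CACCC and related GC-rich DNA through a conserved set of zinc fingers at the carboxyl end, while the amino end differs and decides the partners. By those partners the family falls into activators that recruit acetyltransferases (Klf2, Klf4, Klf5, Klf6 and Klf7 here), repressors that bind CtBP (Klf3) and repressors that bind Sin3 (Klf9, Klf10, Klf11 and Klf13). In the gut epithelium KLF4 is known from differentiated, non-dividing cells and KLF5 from dividing crypt cells, and several members answer quickly to growth factors, TGF-beta, steroids or the circadian clock.

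Total estimated counts were between 22973245 and 31328415 per library. Gata6 was lower in every GATA6KO library, at 14.3, 16.0 and 8.24 CPM (counts per 1000000, scaled between libraries by TMM), against 25.3, 23.2 and 28.0 CPM in Control libraries. Its log2 fold change was -0.99 with an SE of 0.25 (edgeR adjusted p = 0.0486), and the call was lost without Control replicate 1, 2 or 3 (0.149, 0.128 and 0.181). The GATA6KO libraries varied more, with a median SD per gene of 0.251 on the log2 scale, against 0.0890 in Control libraries. The epithelial label held: Epcam, Krt8, Krt18 and Krt19 were among the abundant transcripts, while 6 endothelial, 7 immune and 8 mesenchymal markers had at most 16, 11 and 12 counts in any library. The 8 epithelial markers summed to 6950 to 8300 CPM in GATA6KO libraries and 10556 to 11483 CPM in Control libraries. All 8 were lower in every GATA6KO library than in any Control library, as 20.5% of all genes tested were. Called lower were 3 of the 8 by edgeR (adjusted p below 0.05, 5.47% of all genes) and 6 by DESeq2, with 7 lower at an unadjusted edgeR p below 0.05. Their median log2 fold change was -0.45, against 0.02 over all genes tested. Their part in the KLF results was not tested. In such bulk RNA, fewer cells of a type and less RNA per cell cannot be told apart.

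Of the KLF genes, 3 fell in GATA6KO organoids and none rose. Klf6 fell to 47.2% of its Control level, Klf11 to 61.4% and Klf9 to 75.1%. These were 3 of 10 members called lower by edgeR's quasi-likelihood test at an adjusted p below 0.05, where 5.47% of 14714 genes tested were called lower, and 0 of 10 called higher, where 6.92% were. At an unadjusted p below 0.05, 6 members were lower and 0 higher, and the share of all genes at that threshold is not given here. DESeq2 called 5 members lower and 0 higher, and of 14714 genes it called 1529 lower and 1709 higher. With limma-voom 4 members were called lower and 0 higher, and of the same genes 879 lower and 875 higher. Values of the groups were apart, with GATA6KO lower, for 6 members (Klf2, Klf6, Klf7, Klf9, Klf10 and Klf11), as they were for 20.5% of all genes, and 0 members were apart with GATA6KO higher, as 20.3% of all genes were (40.8% in either direction). A negative log2 fold change was found for 7 of 10 members and 48.1% of all genes. The median log2 fold change of the members was -0.42, against 0.02 over all genes tested.

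**Figure D1:**
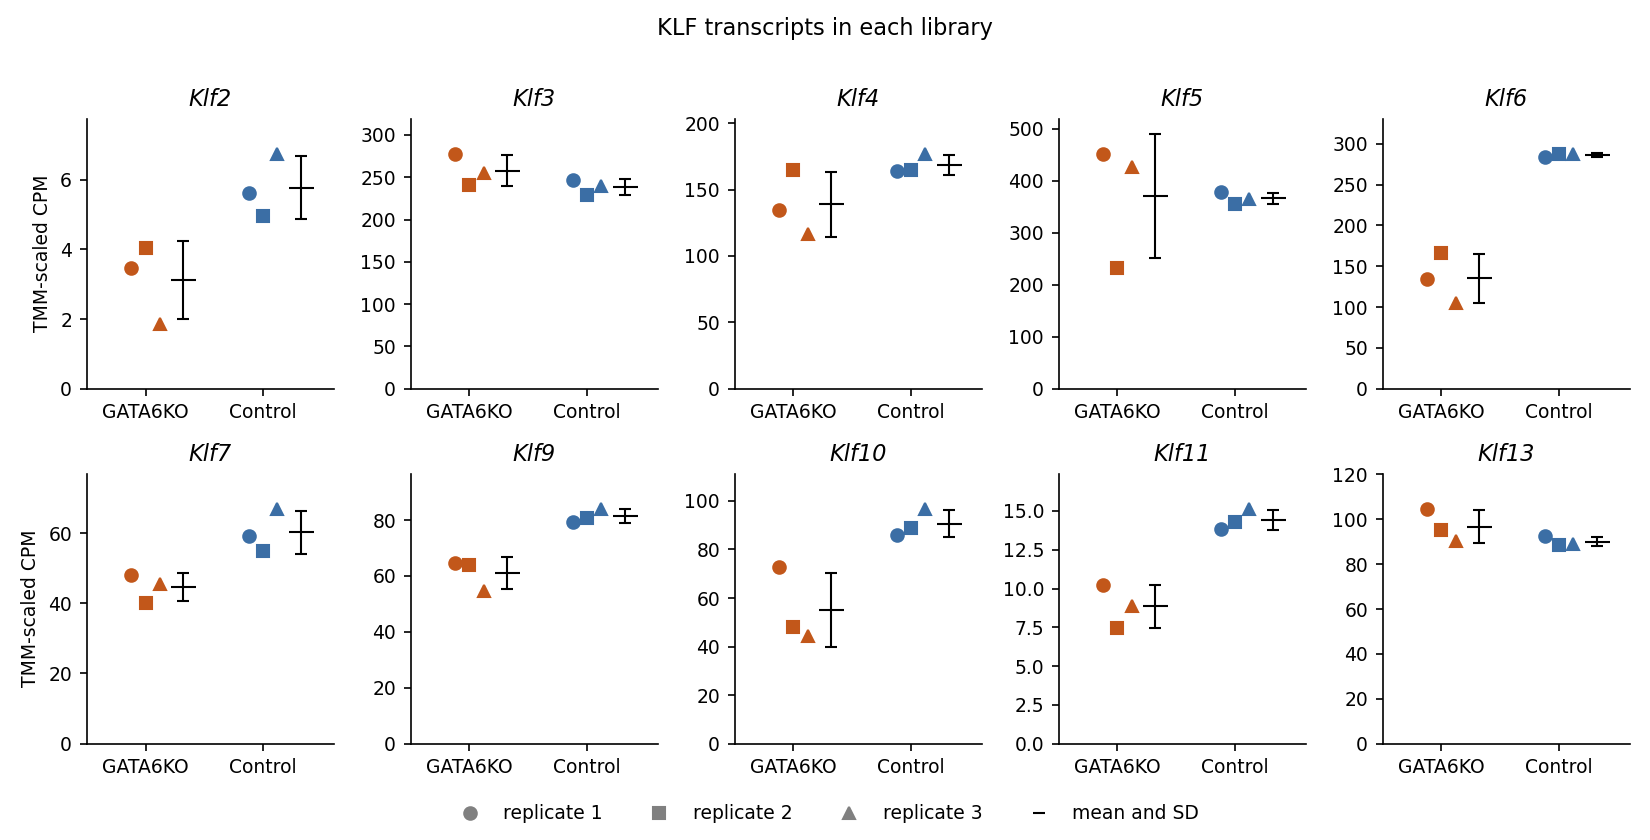
Level of each KLF transcript in TMM-scaled CPM, per library (circle, square and triangle are replicates 1 to 3) with the mean and SD (n = 3), GATA6KO left and Control right, on axes that start at 0. Klf6 lies between 105 and 166 CPM in GATA6KO libraries and between 284 and 288 CPM in Control libraries, while Klf3, Klf4, Klf5 and Klf13 overlap between the groups.

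The promoters of the 3 genes that fell are shown because the study concerns a GATA factor. Each run holds the 250 bases before the RefSeq start in GRCm38.p6, on the strand of the gene. Capitals mark matches to the letters of 3 motifs on either strand: the GATA motif (AGATAA or TGATAA, or either of these with G as the last letter), the CACCC box and the CCAAT box, which are spelled as they are named. The CCAAT letters were added after the sequences had been read. Klf6 is taken from chr13:5861239-5861488 (plus strand), Klf9 from chr19:23140976-23141225 (plus strand) and Klf11 from chr12:24651121-24651370 (plus strand).
Klf6: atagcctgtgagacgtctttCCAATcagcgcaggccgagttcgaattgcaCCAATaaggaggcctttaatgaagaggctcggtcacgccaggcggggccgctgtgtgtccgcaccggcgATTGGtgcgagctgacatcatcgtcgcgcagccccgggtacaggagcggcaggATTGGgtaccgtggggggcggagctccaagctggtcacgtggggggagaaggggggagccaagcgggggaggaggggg
Klf9: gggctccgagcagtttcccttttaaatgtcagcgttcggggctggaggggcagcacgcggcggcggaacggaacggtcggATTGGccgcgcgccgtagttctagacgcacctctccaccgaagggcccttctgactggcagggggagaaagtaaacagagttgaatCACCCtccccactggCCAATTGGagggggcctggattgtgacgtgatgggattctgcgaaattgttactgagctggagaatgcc
Klf11: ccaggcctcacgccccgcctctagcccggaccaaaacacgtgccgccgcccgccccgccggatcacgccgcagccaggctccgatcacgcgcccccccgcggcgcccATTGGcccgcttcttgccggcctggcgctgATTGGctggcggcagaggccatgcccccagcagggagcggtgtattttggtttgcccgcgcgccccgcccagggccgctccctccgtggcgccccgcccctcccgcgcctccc

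Searched from 250 bases before to 50 bases after the start, the GATA letters occurred in 1 of the 8 member promoters in the RefSeq table, against 29.8% of 32851 promoters. That match, in Klf2, lay after the start, at positions 33 to 38 counted from 1 at the start. G and C made up 58.3% to 77.7% of the member windows, against a median of 52.7% over all promoters. The shares of matches were not adjusted for this. Klf5 and Klf10 are named only. The CCAAT letters occurred 4 times in Klf6, 3 times in Klf9, where 2 of the matches on opposite strands share bases, 2 times in Klf11 and 2 times in Klf13, and not in the windows of Klf2, Klf3, Klf4 and Klf7. Over all promoters, 37.4% held at least 1 such match, 11.7% at least 2 and 1.06% at least 4. The CACCC letters, the box that KLF proteins themselves bind, occurred in 5 of 8 member promoters (Klf2, Klf3, Klf7, Klf9 and Klf13), against 57.5% of all. Apart from that shared pair in Klf9, no matches overlapped in these windows.

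Klf6, a zinc-finger activator known as a growth-restraining gene that is induced early after stimulation, showed the largest difference of the 10. It measured 135, 166 and 105 CPM in GATA6KO replicates 1 to 3, against 284, 288 and 287 CPM in Control replicates 1 to 3. Every GATA6KO library was far below every Control library, and replicate 3 was the lowest. Klf6 (ENSMUSG00000000078, mm10 chr13:5861482-5870394, plus strand) had a log2 fold change of -1.08 with an SE of 0.16 (edgeR adjusted p = 0.0109). The call was lost without Control replicate 1, 2 or 3 (adjusted p = 0.0568, 0.0566 and 0.0635), with the log2 fold change between -1.09 and -1.08, and held without each GATA6KO library.

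Klf2, the activator best known from endothelium and resting lymphocytes, was the scarcest member. It had 104, 123 and 56 counts in GATA6KO libraries, against 128, 143 and 202 in Control libraries, which is 3.48, 4.03 and 1.87 CPM against 5.61, 4.96 and 6.74 CPM. The groups did not overlap, but the log2 fold change of -0.88 (SE 0.32) did not pass the test (edgeR adjusted p = 0.119). Endothelial markers were near 0, with Kdr at 1 count in 1 library and Emcn and Cldn5 at 0 in all.

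Klf7, an activator known from neurons and progenitor cells, measured 48.0, 40.2 and 45.5 CPM in GATA6KO libraries and 59.1, 54.9 and 66.9 CPM in Control libraries. The groups lay apart, with a log2 fold change of -0.44 (SE 0.12) just outside the threshold (edgeR adjusted p = 0.0547). It passed without GATA6KO replicate 1 (adjusted p = 0.0300). This was the 1 of 6 fits without 1 library that called Klf7, and the edgeR adjusted p reached 0.201 among them.

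The pair Klf4 and Klf5, with their opposed places along the crypt, did not pass the test. Klf4 measured 135, 165 and 117 CPM in GATA6KO libraries and 164, 164 and 177 CPM in Control libraries. GATA6KO replicate 2 reached the Control range and the other 2 stayed below it, giving a log2 fold change of -0.28 (SE 0.14, edgeR adjusted p = 0.211), which without replicate 2 was -0.42 and passed (adjusted p = 0.0397). Klf5 (mm10 chr14:99298691-99315036, plus strand) measured 452, 233 and 426 CPM in GATA6KO libraries and 378, 355 and 364 CPM in Control libraries. Here replicate 2 lay below all Control libraries and replicates 1 and 3 lay above them, for a log2 fold change of 0.02 with an SE of 0.24 (edgeR adjusted p = 0.971).

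Klf5 lies on chromosome 14, and in GATA6KO replicate 2 the median gene of that chromosome was low. The median log2 ratio to the Control mean over 354 other genes of chromosome 14 was -0.09, -0.90 and 0.04 in GATA6KO replicates 1 to 3. Klf5 itself was at 0.30, -0.65 and 0.22, which is 0.39, 0.25 and 0.18 above its chromosome. Thus Klf5 stood above its chromosome's median in all 3 GATA6KO libraries, by a log2 difference that was not tested. The median of the 5 genes within 1 Mb of Klf5 was -0.17, -0.39 and 0.53 in GATA6KO replicates 1 to 3. Against these neighbours Klf5 was higher in replicate 1 and lower in replicates 2 and 3. Without replicate 2 its log2 fold change was 0.26 and did not pass (edgeR adjusted p = 0.0821). For the other 9 members the chromosome medians lay between -0.10 and 0.10.

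**Figure D2:**
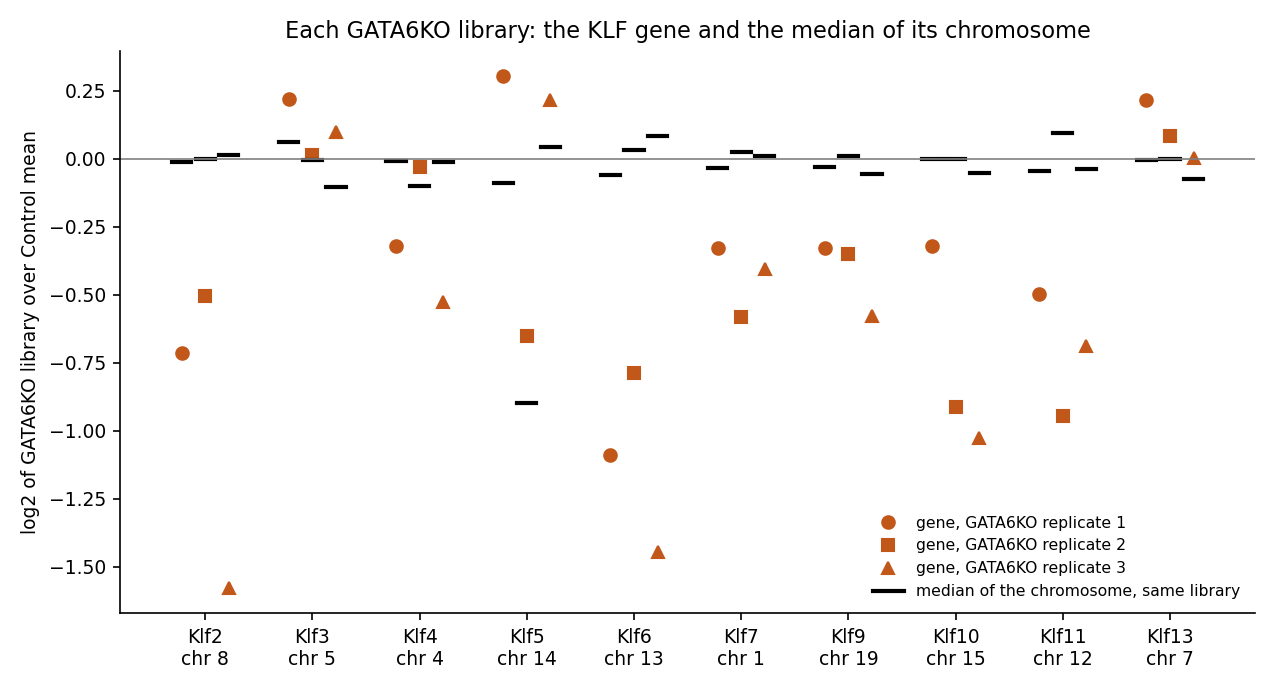
Log2 ratio of each GATA6KO library to the Control mean (0 on the axis) for the 10 KLF genes (orange markers, 1 per replicate) and for the median gene of the same chromosome in the same library (black bars; genes of at least 5 CPM in Control, pseudocount 0.1 CPM). Only the bar of chromosome 14 in replicate 2, at -0.90, lies far from 0, and Klf5 at -0.65 lies above it.

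Counts of Klf4 per count of Klf5 in the same library need no scaling between libraries. The ratio was 0.298, 0.708 and 0.274 in GATA6KO libraries and 0.433, 0.463 and 0.485 in Control libraries. GATA6KO replicates 1 and 3 lay below and replicate 2 above the Control range, so the groups overlapped. The mean log2 ratio was -1.37 ± 0.76 in GATA6KO and -1.12 ± 0.08 in Control (SD, n = 3 each). A 2-sided exact permutation test of the difference of -0.25 gave p = 0.6, where 0.1 is the smallest p that 3 against 3 libraries allow. Without GATA6KO replicate 2, the library with the low chromosome 14 median, the difference was -0.68. That value is given without a test, since the library was singled out after its ratio had been seen.

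Klf3, which represses through CtBP and is known from erythroid and fat cells, measured 278, 241 and 255 CPM in GATA6KO libraries and 247, 228 and 239 CPM in Control libraries. The groups overlapped, with a log2 fold change of 0.11 (SE 0.09, edgeR adjusted p = 0.428).

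Among the Sin3-binding repressors, Klf9 and Klf11 fell and Klf13 did not pass. Klf9, a gene known to be induced by glucocorticoid and thyroid hormone, measured 64.8, 63.9 and 54.5 CPM in GATA6KO libraries and 79.3, 80.8 and 84.0 CPM in Control libraries. The groups lay apart, with replicate 3 the lowest. Klf9 (ENSMUSG00000033863, mm10 chr19:23141226-23168134, plus strand) had a log2 fold change of -0.41 (SE 0.10, edgeR adjusted p = 0.0397). It did not pass with scaling to the library total alone (edgeR adjusted p = 0.0656) or on unfiltered genes (0.0635). Nor did it with the replicate number as a block (0.114).

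Klf10 and Klf11 are the TGF-beta-inducible early genes and restrain growth in several epithelia. Klf11 measured 10.2, 7.44 and 8.91 CPM in GATA6KO libraries and 13.8, 14.3 and 15.1 CPM in Control libraries. All GATA6KO libraries were lower, and Klf11 (ENSMUSG00000020653, mm10 chr12:24651274-24662789, plus strand) fell by 0.70 on the log2 scale (SE 0.16, edgeR adjusted p = 0.0363). Klf11 did not pass on unfiltered genes (edgeR adjusted p = 0.0553) or with the replicate number as a block (0.0971). Klf10 measured 72.6, 48.2 and 44.5 CPM in GATA6KO libraries and 86.1, 89.0 and 96.7 CPM in Control libraries. The groups of Klf10 also lay apart, but GATA6KO replicate 1 stood closer to Control, and the log2 fold change of -0.72 (SE 0.19) missed the threshold (edgeR adjusted p = 0.0556). Without GATA6KO replicate 1 it was -0.97 (adjusted p = 0.00320). This was the 1 of 6 fits without 1 library that called Klf10, and the edgeR adjusted p reached 0.184 among them.

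Klf13, an activator of the chemokine gene Ccl5 in lymphocytes despite its Sin3-binding group, measured 105, 95.4 and 90.3 CPM in GATA6KO libraries and 92.4, 88.6 and 88.9 CPM in Control libraries. The groups overlapped (log2 fold change 0.11, SE 0.09, edgeR adjusted p = 0.448). Neither Klf9 nor Klf11 was called without Control replicate 1, 2 or 3, with adjusted p of 0.136, 0.147 and 0.166 for Klf9 and 0.130, 0.137 and 0.161 for Klf11. Leaving out GATA6KO replicate 3 ended the call of Klf11 as well (adjusted p = 0.0610).

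Levels of different genes can be set side by side only per length, here as CPM per kb of all annotated exons. In GATA6KO organoids the order was Klf5 at 71.1 ± 22.97, Klf4 at 45.5 ± 7.97, Klf6 at 30.8 ± 6.92, Klf3 at 22.9 ± 1.66, Klf10 at 13.2 ± 3.66, Klf13 at 12.8 ± 0.97, Klf9 at 12.7 ± 1.18, Klf7 at 5.48 ± 0.49, Klf11 at 2.04 ± 0.32 and Klf2 at 1.69 ± 0.61 CPM per kb (SD, n = 3). In Control organoids it was Klf5 at 70.4 ± 2.19, Klf6 at 65.2 ± 0.47, Klf4 at 55.2 ± 2.41, Klf10 at 21.7 ± 1.31, Klf3 at 21.2 ± 0.83, Klf9 at 16.9 ± 0.51, Klf13 at 11.9 ± 0.28, Klf7 at 7.42 ± 0.75, Klf11 at 3.32 ± 0.15 and Klf2 at 3.12 ± 0.49 CPM per kb (SD, n = 3). Klf6 stood above Klf4 in Control organoids and below it in GATA6KO organoids. In GATA6KO replicate 2 Klf4 (165 CPM, 3049 exon bases) stood above Klf5 (233 CPM, 5201 exon bases) per length, unlike in the group means. Klf10, Klf13 and Klf9 in GATA6KO, Klf10 and Klf3 in Control, and Klf11 and Klf2 in both groups were closer to their neighbour than the spread between libraries. Summed over the 10 members, KLF transcripts took 1302, 1063 and 1148 CPM in GATA6KO libraries and 1409, 1369 and 1426 CPM in Control libraries.

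The other KLF genes and the related SP factors did not show called changes. Of 7 further KLF genes, 2 were tested, and 0 were called by edgeR or limma-voom, with 1 lower by DESeq2 and 1 in each direction at an unadjusted p below 0.05. That gene was Klf12, a CtBP-binding repressor also on chromosome 14, at 16.6, 14.9 and 17.9 CPM in GATA6KO libraries and 22.8, 20.5 and 24.4 CPM in Control libraries (log2 fold change -0.46, edgeR adjusted p = 0.0658). The other 5 (Klf1, Klf8, Klf14, Klf15 and Klf17) had at most 10 counts in any library. Of 9 SP genes, 7 were tested and 0 were called by edgeR or limma-voom, with 4 higher and 1 lower by DESeq2, and likewise 4 and 1 at an unadjusted p below 0.05.

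Sp4, Sp5, Sp6 and Sp8 were singled out after their values had been seen. Sp4, the nearest to the threshold, measured 15.9, 15.8 and 14.2 CPM in GATA6KO libraries and 10.4, 10.2 and 11.7 CPM in Control libraries (log2 fold change 0.51, SE 0.13, edgeR adjusted p = 0.0512). Sp6, known as epiprofin from tooth and hair follicle, measured 37.1, 12.6 and 5.07 CPM in GATA6KO libraries and 3.59, 2.98 and 2.001 CPM in Control libraries (log2 fold change 2.68, SE 0.71, edgeR adjusted p = 0.0552). Sp5, a target of Wnt signalling, measured 19.3, 31.97 and 11.7 CPM in GATA6KO libraries and 9.11, 8.22 and 9.07 CPM in Control libraries (log2 fold change 1.25, edgeR adjusted p = 0.0608). Sp8, a limb and neural factor, had a log2 fold change of 1.52 (edgeR adjusted p = 0.0937). Sp5, Sp6 and Sp8 were higher in every GATA6KO library than in any Control library, and the GATA6KO libraries differed widely from each other. Of the 7 SP genes tested, 5 lay apart with GATA6KO higher and 2 with GATA6KO lower, as 20.3% and 20.5% of all genes did.

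**Figure D3:**
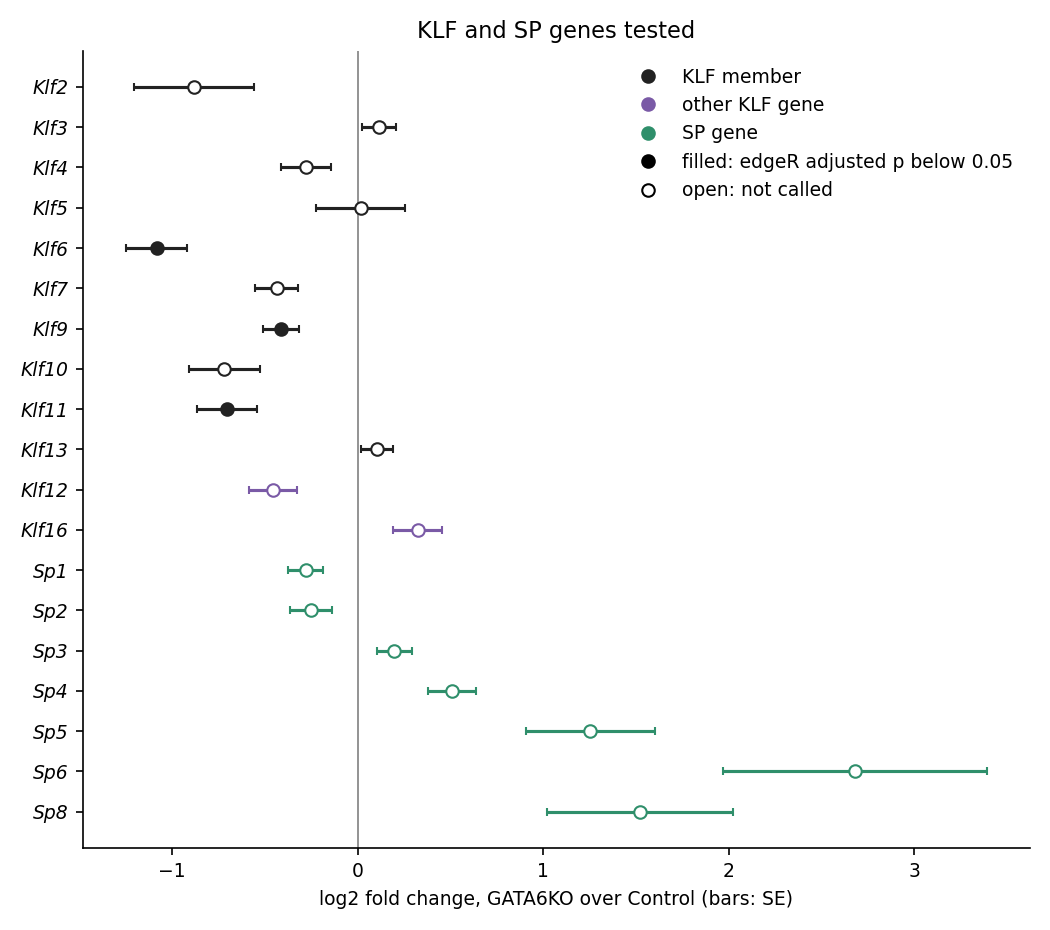
Log2 fold change of GATA6KO over Control with its SE for the 10 KLF members (black), 2 other KLF genes (purple) and 7 SP genes (green) tested by edgeR. Filled points, at an adjusted p below 0.05, are Klf6 (-1.08), Klf9 (-0.41) and Klf11 (-0.70).

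Among 8 tested genes around the TGF-beta axis, which induces Klf10 and Klf11, 2 rose and 1 fell, and the median log2 fold change was -0.06. Over all 14714 genes tested, edgeR called 6.92% higher and 5.47% lower, which is the background for this list and those below. The share of all genes at an unadjusted p below 0.05 is not given here. DESeq2 likewise called 2 higher and 1 lower, and limma-voom 1 higher and 1 lower. At an unadjusted p below 0.05, 2 were higher and 1 lower. The type I receptor Tgfbr1 and the signal carrier Smad2 rose, by 0.57 (edgeR adjusted p = 0.0431) and 0.31 (edgeR adjusted p = 0.0492) on the log2 scale. Smad2 did not pass with limma-voom (adjusted p = 0.0560) or with edgeR on unfiltered genes (adjusted p = 0.103).

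The glucocorticoid and thyroid hormone response, whose hormones induce Klf9, was read from 5 tested genes (median log2 fold change -0.50). Of these, 1 fell and 0 rose by edgeR, where 5.47% of all genes were called lower and 6.92% higher. At an unadjusted p below 0.05, 1 was higher, and DESeq2 and limma-voom called 0 higher. The 4 not called by edgeR went both ways, with log2 fold changes of -0.61 for Thra, -0.50 for Tsc22d3, 0.10 for Fkbp5 and 0.38 for Sgk1. Nr3c1, the glucocorticoid receptor, measured 65.2, 67.9 and 59.7 CPM in GATA6KO libraries and 124, 127 and 140 CPM in Control libraries. All GATA6KO libraries had about the same, lower level (log2 fold change -1.02, SE 0.09, edgeR adjusted p = 0.00248). Of 12 clock genes tested, 2 fell and 0 rose (edgeR; median -0.38; 1 higher at an unadjusted p below 0.05, and 0 higher by DESeq2 and limma-voom): the core repressor Per2 by 0.71 (edgeR adjusted p = 0.0364) and the nuclear receptor Nr1d1 by 1.29 (edgeR adjusted p = 0.0459).

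Immediate early genes, the class of quick response genes to which Klf6 and Klf10 are often counted, fell in part. Of 13 tested, 5 fell and 0 rose by edgeR, where 5.47% of all genes tested were called lower and 6.92% higher. At an unadjusted p below 0.05, 9 were lower and 0 higher, and DESeq2 and limma-voom called 0 higher. The median log2 fold change was -0.64. Fos measured 33.6, 14.7 and 19.0 CPM in GATA6KO libraries and 68.6, 67.0 and 70.8 CPM in Control libraries (log2 fold change -1.62, SE 0.29, edgeR adjusted p = 0.0183). Atf3, a stress-induced factor, had a log2 fold change of -2.07 (edgeR adjusted p = 0.0147), the phosphatase Dusp1 one of -1.80 (edgeR adjusted p = 0.0218), Myc one of -0.52 (edgeR adjusted p = 0.0183) and Jund one of -0.48 (edgeR adjusted p = 0.0451). Fos, Atf3, Dusp1 and Jund were least reduced in GATA6KO replicate 1, the library in which Klf10 was also least reduced. Myc and Klf6 went otherwise. On the log2 scale against the Control mean, Myc was at -0.57, -0.58 and -0.42 in GATA6KO replicates 1 to 3. Klf6 was at -1.09, -0.79 and -1.45, and so least reduced in replicate 2.

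The proteins that KLFs recruit, and those that degrade or stabilise them, showed few calls. Of all genes tested, edgeR called 6.92% higher and 5.47% lower. Of 13 cofactor genes tested, 1 rose and 0 fell (edgeR; median log2 fold change -0.04; 2 lower at an unadjusted p below 0.05, 2 lower by DESeq2 and 0 by limma-voom). It was Hdac1, a deacetylase of Sin3 complexes, at 167 ± 21.8 CPM in GATA6KO and 115 ± 2.06 CPM in Control (SD, n = 3 each; log2 fold change 0.54, edgeR adjusted p = 0.0284). Of 9 ligases and stabilisers, 0 were called by edgeR or limma-voom, with 1 higher by DESeq2 and at an unadjusted p below 0.05. The 2 most abundant were Yap1, which stabilises KLF5 protein in human cells (log2 fold change 0.31, edgeR adjusted p = 0.0589), and the ligase Smurf1 (log2 fold change -0.32, edgeR adjusted p = 0.447). Of 4 tested genes of the ERK5 and MEF2 route to Klf2 and Klf4, 0 were called by edgeR, DESeq2 or limma-voom, with 1 lower at an unadjusted p below 0.05. Mef2d and Mef2a, the most abundant, had log2 fold changes of -0.18 and 0.09 (edgeR adjusted p = 0.515 and 0.633).

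Reported targets of KLF4 went both ways, with 1 called higher and 2 called lower among 10 tested (median log2 fold change -0.27). Among all genes tested, 6.92% were called higher and 5.47% lower by edgeR. The keratin Krt4 fell by 0.60 (SE 0.10, edgeR adjusted p = 0.0127) and intestinal alkaline phosphatase, Alpi, had 0, 6 and 2 counts in GATA6KO libraries and 29, 47 and 40 counts in Control libraries (edgeR adjusted p = 0.0206). The cornified envelope gene Sprr2a1 rose by 2.71 (edgeR adjusted p = 0.0159), a value that is uncertain because its reads can be split with near-identical copies such as Sprr2a3.

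Of 6 reported KLF5 targets, Fgfbp1, an FGF-binding secreted protein, was the 1 that fell, and 0 rose (edgeR, DESeq2 and limma-voom alike, and 0 higher at an unadjusted p below 0.05; median log2 fold change 0.00). It measured 38.1 ± 3.48 CPM in GATA6KO and 81.6 ± 9.91 CPM in Control (SD, n = 3 each; log2 fold change -1.10, SE 0.12, edgeR adjusted p = 0.00445). Of 7 tested targets of other KLFs, 1 fell and 0 rose (edgeR, with 0 higher by DESeq2, limma-voom and at an unadjusted p below 0.05; median -0.58). That gene was Cdh1, E-cadherin, reported as a target of KLF6, by 0.44 on the log2 scale (SE 0.09, edgeR adjusted p = 0.0246). It is also 1 of the 8 epithelial markers. The edgeR background for both lists is 5.47% of all genes tested called lower and 6.92% called higher.

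**Figure D4:**
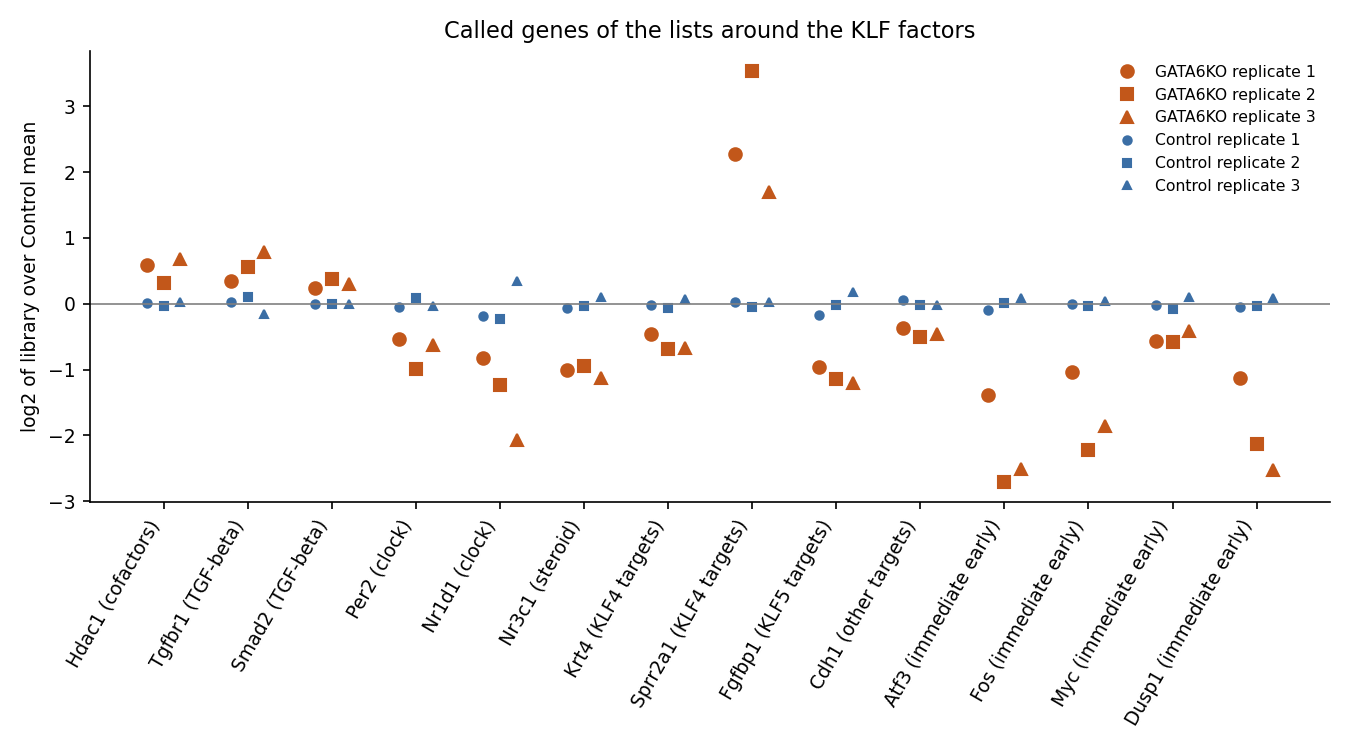
Log2 ratio of each library to the Control mean for called genes of the lists around the KLF factors (orange GATA6KO, blue Control; circle, square and triangle are replicates 1 to 3). Not every such gene is drawn, and Alpi is left out because a GATA6KO library is at 0. Nr3c1 and Fgfbp1 show little spread between GATA6KO libraries, as do Cdh1, Smad2, Myc and Krt4.

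Among these genes Nr3c1 and Fgfbp1 stayed past the threshold with each library left out in turn, at adjusted p of at most 0.0232 and 0.0308. Hdac1, Tgfbr1, Smad2, Per2, Nr1d1, Krt4, Sprr2a1, Alpi, Cdh1, Fos, Atf3, Dusp1, Myc and Jund lost their calls when any of the 3 Control libraries was left out, with adjusted p between 0.0570 and 0.223. Further losses were those of Tgfbr1 (0.0593 and 0.0689), Smad2 (0.0619 and 0.0597) and Jund (0.0688 and 0.0678) without GATA6KO replicates 2 and 3, of Nr1d1 without replicate 2 (0.0730), and of Per2 (0.0536) and Alpi (0.0542) without replicate 3.

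The genes whose levels over the 6 libraries ran most like those of a called KLF were sought among 9182 genes of at least 10 CPM on average, leaving out predicted and RIKEN gene models. They were Ppp1r12c and Lamc1 for Klf6 (Pearson r of log2 CPM 0.997 and 0.996), Fhl2 and Coro2a for Klf9 (0.999 and 0.998), and Mex3c for Klf11 (0.999). Such values describe 6 libraries in 2 separate groups, so they mostly carry the difference between the groups. Fhl2 measured 14.4 CPM in GATA6KO and 64.1 CPM in Control, and Lamc1 measured 91.3 CPM in GATA6KO and 160 CPM in Control.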

How the data were processed

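Poly(A)-selected RNA of 6 libraries was read as strand-marking libraries, per the labels' protocols. The authors deposited estimated counts per gene in whole numbers, not scaled between libraries. Per the submitters' processing notes, Salmon 1.3.0 and mm10 were involved, with no step given, and for annotation release, rounding and strand setting the entry is likewise not given in the sources used here. Of 54418 identifiers, 54166 matched a symbol in GENCODE M21 (mm10). No pair of replicates agreed within sampling noise, with chi-square per degree of freedom of 70.3 to 101 between GATA6KO libraries and 9.43 to 10.5 between Control libraries.

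Genes were kept by filterByExpr with its defaults (a minimum count of 10, in 3 libraries, and of 15 in total), which left 14714. GATA6KO was compared with Control by edgeR's quasi-likelihood test with TMM scaling and robust estimation, and Benjamini-Hochberg adjustment over all genes tested (threshold 0.05). The SE is the log2 fold change over the square root of F. Fits ran in edgeR 4.0.16 under R 4.3.3, and alternatives in DESeq2 1.42.0 and limma 3.58.1. The edgeR fit was tested on simulated data. Members and lists were chosen with earlier results of these data known. Named were all 10 members, Gata6, called KLF and SP genes, and from each further list up to 4 called genes of at least 1 CPM or, with none called, the 2 most abundant, and for each called member the 2 most alike genes. Klf12, Sp4, Sp5, Sp6, Sp8, Jund, Sprr2a3, Thra, Tsc22d3, Fkbp5 and Sgk1 were named after their values were seen. The CCAAT letters were chosen after the sequences were read. Promoters are from the RefSeq table (GRCm38.p6), which matched 8 of 10 members. Some results on genes that the rule named are not reported here. Alternatives were other scalings, tests and filters, a replicate block, a fit without chromosome 14 and each library left out.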

Additional observations from a re-analysis of the deposited data

How the results depend on the processing

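The number of KLF members called was 5 with DESeq2 (3238 genes in the whole table, against 1823), 0 with a test against a 1.5-fold change (525 genes, with 1 member lower at an unadjusted p below 0.05), and 2 to 4 under the other scalings, tests and filters. With the replicate number as a block it was 1, Klf6 (adjusted p = 0.0238), and 827 genes in the whole table. Same-numbered libraries did not deviate together (correlations of -0.04, 0.10 and -0.11 for numbers 1 to 3), so the numbers were not taken as pairs. For the Klf4 to Klf5 ratio the block leaves the difference (-0.25) unchanged by arithmetic, so it was no check of that value. Leaving out 1 library gave 0 to 5 members called, 332 to 4360 genes in the whole table, and a difference of the Klf4 to Klf5 ratio between -0.68 and -0.0013. The 0 arose without Control replicate 1, 2 or 3, where 5, 6 and 5 members were lower at an unadjusted p below 0.05. The 5 arose without GATA6KO replicate 1. In no setting run was a member called higher. The 2 members called on unfiltered genes were Klf6 and Klf10. Over all 17 alternatives the adjusted p of Klf6 ran from 1.09e-07 to 0.0673, that of Klf11 from 0.00101 to 0.621 and that of Klf9 from 0.00253 to 0.999995; Klf10 was called in 5 of them (0.00320 to 0.656), Klf7 in 3 (lowest 0.0101) and Klf4 in 1 (0.0397). The sign of Klf5, which was never called, turned with limma-voom (-0.043, and -0.043 with weights by group), with the replicate block (-0.041) and in 3 of the fits without 1 library, which ranged from -0.15 to 0.26. That of Mef2a was -0.030 without GATA6KO replicate 2, in a range of -0.030 to 0.171 without 1 library. Scaling to the library total alone moved the share of higher calls to 65.7% from 55.8% and the median over all tested genes, on the log2 scale, to 0.09 from 0.02; Klf9 was then not called, and all members kept their sign. The causes of these differences were not tested. Klf2, at 56 to 202 counts, is the member whose precision depth limits most.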
